A study of Brassica napus with 14 samples.

Results

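The genes described here are the Brassica napus copies of 10 Arabidopsis MADS-box loci with known roles or expression in flowers, ovules, fruits or embryos. The loci are STK (AT4G09960), SHP1 (AT3G58780), SHP2 (AT2G42830), AG (AT4G18960), SEP1 (AT5G15800), SEP2 (AT3G02310), SEP3 (AT1G24260), SEP4 (AT2G03710), AGL15 (AT5G13790) and AGL18 (AT3G57390). Every gene that the authors' table pairs with one of these loci was taken, which gave 59 copies among the 96219 genes of the table. Brassica napus, oilseed rape, carries an A and a C subgenome, and 28 copies lay on A chromosomes, 29 on C chromosomes and 2 on unplaced sequences.

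RNA sequencing of polyadenylated transcripts was done on entire ovules and seeds of cultivar DH12075, whose plants were grown in chambers under long days and pollinated by hand. Ovules (stage OV) were taken at day 0. Seeds of stage GLOB were collected 7 days past fertilization, those of HEART after 10 days, those of MG after 28 days and those of DS after 35 days. There were 2 libraries of DS and 3 of every other stage. The authors deposited 1 FPKM value per gene and stage (sequenced fragments, scaled to the length of the transcript and to the library's size), so no value below has a replicate error, no difference was tested, and the depth of the libraries is unknown. An ovule or seed was sampled whole, with embryo, endosperm and maternal coat together, so fewer cells of a type and less RNA per cell cannot be told apart.

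MADS-box proteins are transcription factors that act in complexes of several members. In Arabidopsis, AG specifies carpels and stamens, and STK, SHP1 and SHP2 act redundantly to give ovules their identity. STK also acts in the seed coat and in the stalk of the seed, and SHP1 and SHP2 pattern the dehiscence zone of the fruit. The SEP proteins are the cofactors that these identity factors need, while AGL15 and AGL18 accumulate in the embryo, where AGL15 promotes embryonic programmes. The sequences of these genes were not analysed here.

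Of the 59 copies, 41 reached 1 FPKM in at least 1 stage, and 31 of those reached 10 FPKM. The other 18 did not reach 1 FPKM, and 11 of them were listed at 0 in all 5 stages. Summed over the copies, the 10 loci stood at 1439 FPKM in OV, 2238 at GLOB, 1939 at HEART, 327 at MG and 14.8 at DS. That was 0.323% of all FPKM in OV, 0.350% at GLOB, 0.327% at HEART, 0.0216% at MG and 0.00162% at DS. Copies at or above 1 FPKM numbered 36 at OV, 34 at GLOB, 38 at HEART and 27 at MG, and 2 at DS, both of them AGL18 copies. The loci thus differed in timing: SHP1, AG, SEP1 and SEP4 were highest in OV, STK, SEP2 and SEP3 in GLOB, SHP2 and AGL18 in HEART, and AGL15 in MG. After rescaling to a common sum SEP2 and SEP3 were highest in OV and the other 8 loci at the stage named. For SEP2 the 3 early stages lay within 235 to 245 FPKM and for AGL18 HEART and GLOB lay at 36.8 and 34.4 FPKM, so the order of those stages rests on small differences.

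**Figure D1:**
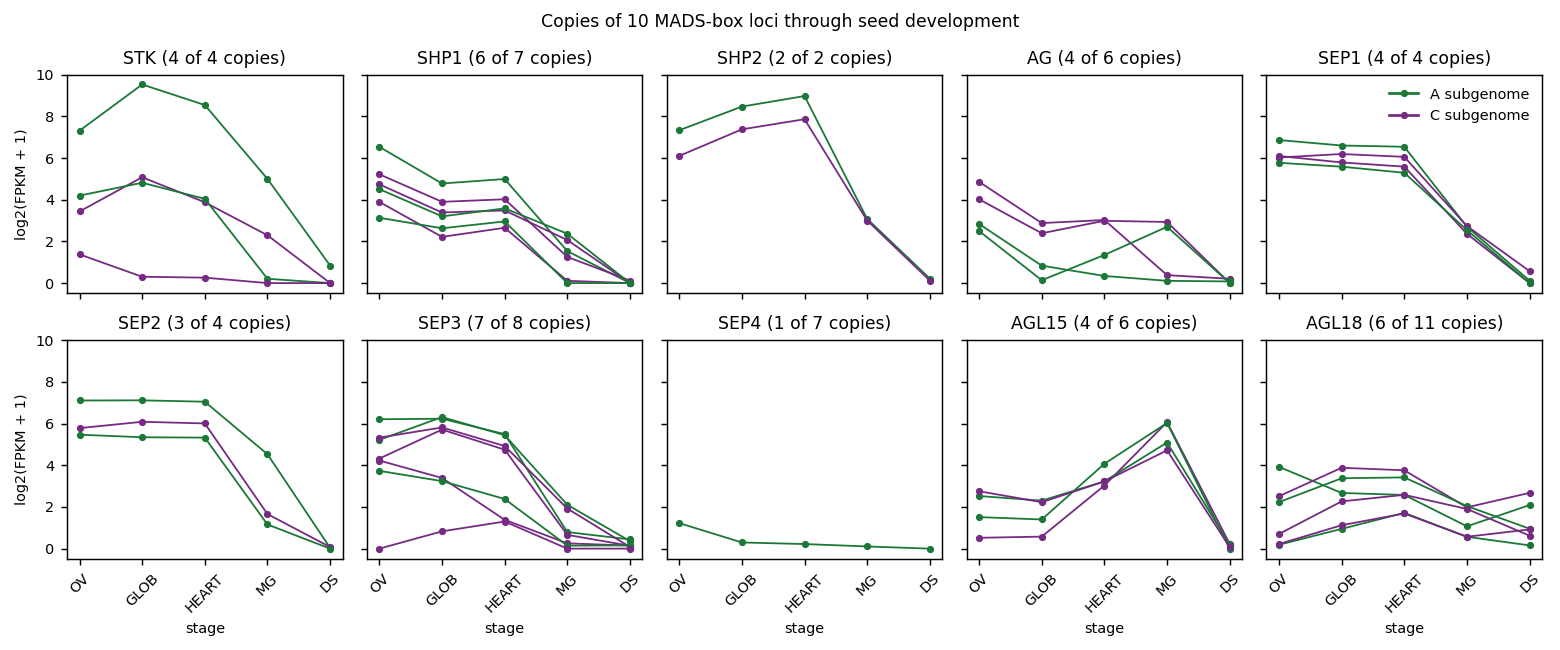
Level of each copy that reached 1 FPKM, as log2(FPKM + 1) on the vertical axis, at the 5 stages on the horizontal axis, with 1 panel per locus and 1 line per copy, green for the A and purple for the C subgenome. The lines of the 4 AGL15 copies peak in MG. In DS the STK, SHP, AG, SEP and AGL15 lines are below 1 FPKM, and 2 AGL18 lines are above it.

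The stage labels were checked with marker genes, given as FPKM summed over copies. Of the 3 embryo genes, LEC1 stood at 65.7 in HEART and was listed at 0 in OV, WOX2 stood at 0.224 in HEART and was highest in DS, at 5.44, and WOX8 did not pass 0.476. The 4 seed coat genes summed to 275 in GLOB and 2.17 in OV. The 3 storage genes summed to 241560 in MG and 73.6 in HEART, and the late maturation genes EM6 and EM1 to 45721 at DS. The 3 egg cell genes were low in every stage, with a sum of 2.36 at OV and at most 8.35, in HEART. Of the early endosperm markers FWA was listed at 0 throughout and the other 3 stayed below 7 FPKM each. AGL62, a sum over 24 copies, was highest in MG, at 5.36 against 2.73 in GLOB. FIS2 and ZOU were highest in HEART, at 2.77 and 6.68, against 0.102 and 0.0342 in GLOB. AMS, DYT1 and TDF1, which mark stamens, stayed below 1 FPKM each, with a sum of 0.0930 at OV. The fruit valve margin gene IND was listed at 0 in all 5 stages, and its partner ALC stood at 0.425 at DS and 10.5 at OV.

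STK, the ovule identity gene with a role in the seed coat, was carried mainly by 1 copy. BnaN09g24170 (chromosome 9, A subgenome) stood at 158 FPKM in OV, 741 at GLOB, 373 at HEART, 31.1 at MG and 0.794 at DS. It ranked 191 among the 96219 genes in OV, 28 at GLOB and 78 at HEART, and held 84.6% of the STK sum at OV, 92.5% at GLOB and 92.7% at HEART. BnaN19g31850 (chromosome 19, C) stood at 9.84 at OV, 32.9 at GLOB, 13.7 at HEART, 3.91 at MG and 0 FPKM at DS. BnaN03g24760 (chromosome 3, A) stood at 17.4 at OV, 27.2 at GLOB, 15.5 at HEART, 0.154 at MG and 0 FPKM at DS. All 3 were highest in GLOB, whereas the low copy BnaN13g30150 was highest in OV, with 1.60 FPKM. The C subgenome accordingly held 6.11% of the STK sum in OV, 4.13% at GLOB, 3.46% at HEART and 11.1% at MG. BnaN03g24760 shares its Darmor identifier with BnaN09g24170, and how reads were divided between such copies is not given.

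SHP1 and SHP2, close paralogues with overlapping roles in the fruit and the ovule, went opposite ways at the first step. The larger SHP2 copy, BnaN05g03030 (chromosome 5, A), stood at 161 FPKM in OV, 355 at GLOB, 504 at HEART, 7.45 at MG and 0.162 at DS. The other, BnaN14g03390 (chromosome 14, C), stood at 67.9 at OV, 166 at GLOB, 232 at HEART, 7.01 at MG and 0.0887 FPKM at DS. Both were highest in HEART, where they ranked 41 and 188 among all genes. Their levels in MG lay close together, so the A copy held 51.5% of the sum in MG and 68.4% in HEART. Both copies carry the same Darmor identifier, and how reads were divided between them is not given.

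SHP1 had 7 copies, of which 6 reached 1 FPKM, and each of these was highest in OV. BnaN07g19650 (chromosome 7, A) stood at 92.1 FPKM in OV, 26.5 at GLOB, 30.9 at HEART, 1.90 at MG and 0 at DS. BnaN16g21120 (chromosome 16, C) stood at 36.3 at OV, 13.9 at GLOB, 15.3 at HEART, 1.39 at MG and 0.0868 FPKM at DS. The 6 copies differed between HEART and GLOB by 0.10 to 0.44 on the log2(FPKM + 1) scale. Of these, BnaN14g29840 (chromosome 14, C) stood at 25.7 at OV, 9.48 at GLOB, 10.2 at HEART, 3.19 at MG and 0 FPKM at DS. BnaN04g02200 (chromosome 4, A) stood at 21.8 at OV, 8.21 at GLOB, 11.0 at HEART, 4.17 at MG and 0 FPKM at DS, and BnaN18g36830 (chromosome 18, C) at 13.9 at OV, 3.65 at GLOB, 5.30 at HEART, 0.0788 at MG and 0 FPKM at DS. The sixth, BnaN09g42930, did not pass 7.79 FPKM, and Bna27500s0010 was listed at 0 throughout. SHP2 therefore made up 53.6% of the FPKM of the SHP pair in OV, 88.6% at GLOB, 90.3% at HEART and 57.4% at MG. At OV the sums of SHP1 and SHP2 were 198 and 229 FPKM.

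AG, the carpel and stamen identity gene, had a lower sum than STK, SHP1 and SHP2 in OV, GLOB and HEART, and split into copies of different timing. BnaN13g71210 (chromosome 13, C) stood at 28.0 FPKM in OV, 6.37 at GLOB, 7.16 at HEART, 0.304 at MG and 0.153 at DS. BnaN11g12030 (chromosome 11, C) stood at 15.3 at OV, 4.25 at GLOB, 6.95 at HEART, 6.64 at MG and 0 FPKM at DS. These C copies were close in HEART and far apart in MG. The A copies were lower than these in OV, BnaN03g44760 (chromosome 3) with 6.15 at OV, 0.786 at GLOB, 0.268 at HEART, 0.0780 at MG and 0.0565 FPKM at DS, and BnaN01g09880 (chromosome 1) with 4.66 at OV, 0.0995 at GLOB, 1.55 at HEART, 5.52 at MG and 0 FPKM at DS. The copies on chromosomes 1 and 11 together held 36.8% of the AG sum in OV, 37.8% at GLOB, 53.4% at HEART and 97.0% at MG. Those on chromosomes 3 and 13 were 89.6-fold lower in MG than in OV, against 1.64-fold for chromosomes 1 and 11. These ratios are of the deposited values, whose sum over all genes was 446090 FPKM in OV and 1.51e+06 FPKM in MG. They were not computed on a common sum, which would put MG lower against OV. This grouping of copies was chosen after their values were seen. After rescaling to a common sum, MG minus HEART in log2(FPKM + 1) was 0.35 for the chromosome 1 copy and -1.20 for that on chromosome 11. BnaN01g09870 and BnaN17g43450 were listed at 0 at every stage, and BnaN01g09870 shares its Darmor identifier with BnaN01g09880.

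The cofactor genes SEP1, SEP2 and SEP3 had sums of 149 to 302 FPKM in OV, GLOB and HEART. The 4 SEP1 copies stood at 53.8 to 116 FPKM in OV, 47.1 to 96.4 at GLOB, 38.3 to 92.4 at HEART, 4.16 to 5.67 at MG and 0 to 0.489 at DS. The highest was BnaN10g19650 (chromosome 10, A), with 116 at OV, 96.4 at GLOB, 92.4 at HEART, 5.52 at MG and 0.0829 FPKM at DS. It was followed in OV by BnaN13g07480 (chromosome 13, C), with 67.6 at OV, 54.4 at GLOB, 47.2 at HEART, 4.16 at MG and 0 FPKM at DS. BnaN19g52810 (chromosome 19, C) was the SEP1 copy that was not highest in OV, with 64.3 at OV, 72.4 at GLOB, 65.7 at HEART, 5.67 at MG and 0.489 FPKM at DS. The fourth, BnaN03g06340 (chromosome 3, A), stood at 53.8 at OV, 47.1 at GLOB, 38.3 at HEART, 4.83 at MG and 0 FPKM at DS.

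SEP2 was led by BnaN01g39670 (chromosome 1, A), with 137 FPKM in OV, 138 at GLOB, 132 at HEART, 22.1 at MG and 0.0259 at DS. BnaN15g55860 (chromosome 15, C) stood at 54.2 at OV, 67.1 at GLOB, 63.5 at HEART, 2.16 at MG and 0.0544 FPKM at DS, and BnaN05g37040 (chromosome 5, A) at 43.3 at OV, 39.7 at GLOB, 39.2 at HEART, 1.23 at MG and 0 FPKM at DS. The chromosome 1 copy held 86.4% of the SEP2 sum in MG and 58.5% in OV. BnaN11g51220 was listed at 0.0779 FPKM in MG and at 0 elsewhere.

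SEP3 had 8 copies with several profiles. BnaN09g32060 (chromosome 9, A) stood at 36.3 FPKM in OV, 78.6 at GLOB, 42.6 at HEART, 3.30 at MG and 0.284 at DS. BnaN13g64760 (chromosome 13, C) stood at 19.0 at OV, 51.5 at GLOB, 25.9 at HEART, 0.581 at MG and 0.0991 FPKM at DS, and BnaN15g22850 (chromosome 15, C) at 39.2 at OV, 55.4 at GLOB, 29.4 at HEART, 2.79 at MG and 0.0565 FPKM at DS. These had their highest value in GLOB. BnaN08g21810 (chromosome 8, A) stood at 73.1 at OV, 74.4 at GLOB, 44.2 at HEART, 0.733 at MG and 0.359 FPKM at DS. Highest in OV instead were BnaN17g15500 (chromosome 17, C), with 17.8 at OV, 9.50 at GLOB, 1.61 at HEART, 0.192 at MG and 0.107 FPKM at DS, and BnaN07g09180 (chromosome 7, A), with 12.3 at OV, 8.45 at GLOB, 4.22 at HEART, 0.105 at MG and 0.117 FPKM at DS. The remaining BnaN17g15510 and BnaN07g09190 stayed at or below 1.46 and 0.0794 FPKM.

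SEP4, the fourth cofactor, was low at every stage. Of its 7 copies only BnaN09g21710 reached 1 FPKM, with 0.228 at GLOB and 1.34 at OV, and 3 copies were listed at 0 throughout. Summed over SEP1 to SEP4, the cofactors had 735 FPKM in OV, 794 at GLOB, 628 at HEART, 53.7 at MG and 1.68 at DS. Set against the sum of STK, SHP1, SHP2 and AG, this was 1.102 times at OV, 0.567 times at GLOB, 0.509 times at HEART, 0.736 times at MG and 1.25 times at DS, where both sums were under 2 FPKM.

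**Figure D2:**
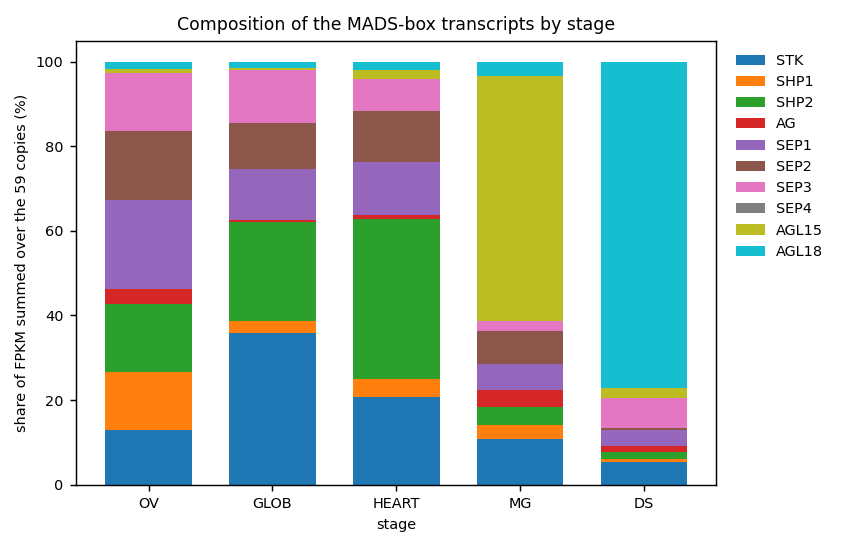
Share of the FPKM summed over the 59 copies that each of the 10 loci held (vertical axis, percent), at the 5 stages (horizontal axis). STK held 35.8% at GLOB, SHP2 38.0% at HEART, AGL15 57.9% at MG and AGL18 77.1% at DS, where the whole sum was 14.8 FPKM.

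AGL15, a MADS factor of embryos, had its highest value in MG in all 4 copies that reached 1 FPKM. BnaN13g06060 (chromosome 13, C) stood at 0.434 FPKM in OV, 0.491 at GLOB, 7.17 at HEART, 66.4 at MG and 0.170 at DS. BnaN03g05370 (chromosome 3, A) stood at 1.85 at OV, 1.64 at GLOB, 15.8 at HEART, 64.5 at MG and 0 FPKM at DS. These copies were the lower ones in OV and GLOB and the higher ones in MG. BnaN10g20920 (chromosome 10, A) stood at 4.76 at OV, 3.93 at GLOB, 8.38 at HEART, 33.2 at MG and 0.143 FPKM at DS, and BnaN19g54460 (chromosome 19, C) at 5.75 at OV, 3.69 at GLOB, 8.36 at HEART, 25.3 at MG and 0.0509 FPKM at DS. Between HEART and GLOB, the sum of the copies on chromosomes 3 and 13 was 10.8-fold higher in HEART, and that of chromosomes 10 and 19 was 2.20-fold higher. The copies on chromosomes 3 and 13 held 17.9% of the AGL15 sum in OV, 21.8% at GLOB, 57.9% at HEART and 69.1% at MG, again a grouping chosen after the values were seen. BnaN12g22310 and BnaN13g57360 were listed at 0 throughout.

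**Figure D3:**
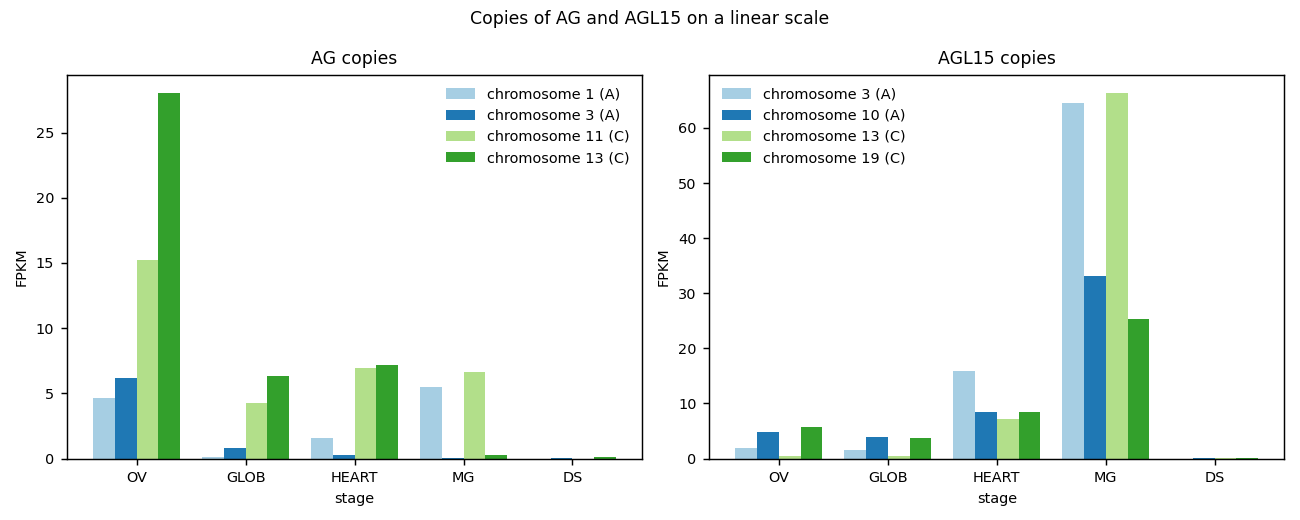
FPKM (vertical axis, linear, from 0) of the 4 AG copies and the 4 AGL15 copies that reached 1 FPKM, at the 5 stages, with 1 bar per copy. In MG the AG copies on chromosomes 1 and 11 stand at 5.52 and 6.64 FPKM, and those on chromosomes 3 and 13 at 0.0780 and 0.304 FPKM.

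AGL18, the relative of AGL15, had the most copies, 11, and a low level throughout. BnaN14g30990 (chromosome 14, C) stood at 4.72 FPKM in OV, 13.7 at GLOB, 12.6 at HEART, 2.95 at MG and 5.40 at DS. BnaN04g02890 (chromosome 4, A) ran differently, with 14.2 at OV, 5.38 at GLOB, 4.97 at HEART, 1.101 at MG and 3.26 FPKM at DS. Of the other 4 copies that reached 1 FPKM, each was highest in HEART, led by BnaN09g42010 with 9.70 FPKM there. The sum stood at 11.4 FPKM in DS and 10.9 FPKM in MG, and AGL18 was the locus with the highest sum in DS. The C subgenome held 54.4% of the AGL18 sum in GLOB and 23.4% in OV. The other 5 copies stayed below 1 FPKM, 3 of them at 0 throughout.

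For the comparison of stages, a copy was counted as higher or lower at a difference of at least 1 in log2(FPKM + 1), 2-fold on that scale, which understates changes of low genes. Counts are over the 41 copies that reached 1 FPKM and are set beside those over all 49417 genes that did. A copy that reached 1 FPKM in a single stage was bound to be higher there, though not always past the threshold. The counts are therefore a description.

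In GLOB against OV, 9 copies were higher and 11 lower, beside 15.8% and 11.0% of all genes. The 9 higher copies were the 2 of SHP2, 2 of STK, 2 of SEP3 and 3 of AGL18. The 11 lower were 5 of SHP1, 4 of AG and 1 each of STK and AGL18. By sums, STK was 4.28-fold and SHP2 2.28-fold higher in GLOB than in OV, while SHP1 was 2.95-fold and AG 4.70-fold lower in GLOB. The SEP1 and SEP2 sums differed by -0.16 and 0.06 on the log2 scale. After rescaling the stages to the same sum, 3 copies were higher and 15 lower, and the SHP2 difference was 0.66 in place of 1.18, below the threshold, with a median over all genes of -0.32. The 2 STK copies stayed above the threshold, and the 5 SHP1 and 4 AG copies stayed lower by it.

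HEART against GLOB, 3 days apart, showed 3 copies higher and 2 lower, beside 4.89% and 2.50% of all genes. The higher ones were AGL15 on chromosomes 3 and 13, with differences of 2.67 and 2.45, and AG on chromosome 1, with 1.21. The lower ones were STK on chromosome 19 (-1.20) and SEP3 on chromosome 17 (-2.01). Just short of the threshold lay the main STK copy at -0.99, SEP3 on chromosome 13 at -0.97 and the AGL15 copies on chromosomes 10 and 19, at 0.93 and 0.998.

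MG against HEART gave 5 copies higher and 31 lower, beside 17.4% and 22.4% of all genes. Higher were the 4 AGL15 copies, by 1.49 to 3.04, and AG on chromosome 1, by 1.35. Lower were all copies that reached 1 FPKM of SHP1, SHP2, SEP1, SEP2 and SEP3, 3 of 4 STK copies, 5 of 6 AGL18 copies and AG on chromosome 13. SHP2 was 50.9-fold, SEP3 19.4-fold, SEP1 12.1-fold, STK 11.5-fold, SEP2 9.16-fold and SHP1 7.41-fold lower in MG by sums, and the AGL15 sum was 4.76-fold higher. On a common sum, 1 copy was higher and 33 lower. The higher copy was AGL15 on chromosome 13, at 1.76, and the other AGL15 copies stood at 0.23 to 0.65. AG on chromosome 1 stood at 0.35, below the threshold, and AG on chromosome 11 at -1.20. The difference of the AGL15 sum was 0.89 in place of 2.22, where the median of all genes was -0.98. Relative to that median AGL15 was 1.87 higher.

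DS against MG gave 1 copy higher and 25 lower, beside 19.0% and 21.3% of all genes. The higher one was AGL18 on chromosome 4, at 1.02, and the AGL18 copies on chromosomes 9 and 18 were lower, with differences of -1.09 and -1.28. The AGL15 sum was 519-fold lower in DS, at 0.365 FPKM against 189 FPKM in MG, and STK was 44.3-fold lower. DS against OV, the end points, gave 0 copies higher and 35 lower, beside 23.1% and 25.5% of all genes. The 6 copies within the threshold were 4 of AGL18, 1 of AGL15 and 1 of SEP3, and the median difference of the 41 copies was -4.08, beside -0.03 for all genes.

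**Figure D4:**
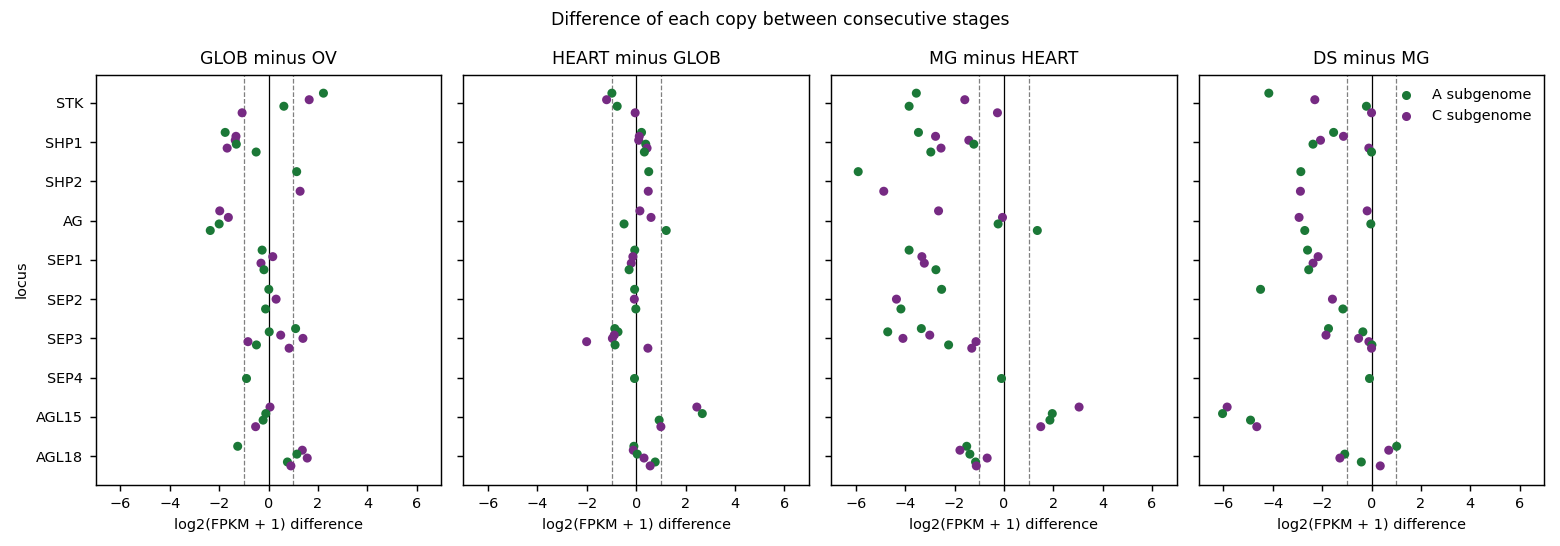
Difference of each copy that reached 1 FPKM between consecutive stages, in log2(FPKM + 1) (horizontal axis), by locus (vertical axis), with dashed lines at the threshold of 1 in either direction. SHP1 and AG lie left of 0 and SHP2 right of it in GLOB minus OV, and AGL15 is the locus with all its copies to the right in MG minus HEART.

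Other MIKC-type MADS-box genes, the class with a keratin-like domain to which the 10 loci belong, were followed through 16 further symbols as sums over copies. Of these, 10 reached 1 FPKM. In GLOB against OV 1 was higher and 4 lower, and in DS against OV 0 were higher and 8 lower. Here and for the lists below, the counts are of sums per locus. The share over all loci summed in this way was not counted, so they only describe each list. TT16, a seed coat gene of the B-sister group, stood at 378 FPKM in OV, 190 at GLOB, 42.0 at HEART, 5.98 at MG and 0.170 at DS. It was thus above each of the 10 loci in OV. The GLOB minus OV difference of TT16 was -0.99, just within the threshold. AGL13 stood at 5.39 FPKM in GLOB and 62.5 FPKM in OV and was listed at 0 later, and AGL6, of the same clade, stood at 41.0 at OV, 9.63 at GLOB, 2.67 at HEART, 2.55 at MG and 0.149 FPKM at DS. SVP stood at 6.54 FPKM in OV, 0.456 at GLOB and 4.64 at HEART, and SOC1 at 2.92 in OV and 0.0637 at GLOB. AGL13, AGL6, SVP and SOC1 were the 4 lower in GLOB. AGL12, known as a root gene in Arabidopsis, was the one higher in GLOB, with 41.0 FPKM against 5.72 at OV. AP3, a petal and stamen gene, stood at 20.4 FPKM in GLOB and 12.6 FPKM in OV. PI, the other such gene listed, was highest in MG, at 5.30 FPKM, against 2.30 at GLOB and 2.09 at OV. The stamen markers AMS, DYT1 and TDF1 stayed below 1 FPKM.

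**Figure D5:**
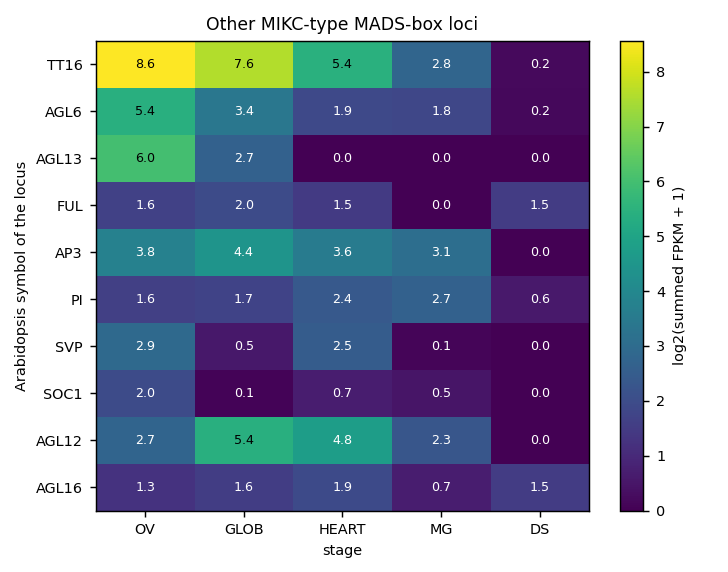
Level of the 10 other MIKC-type MADS-box symbols that reached 1 FPKM, as log2 of the FPKM summed over copies plus 1 (colour and printed value), at the 5 stages. TT16, AGL6 and AGL13 are highest in OV, and AGL12 at GLOB.

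Regulators of these genes in Arabidopsis were followed through 12 symbols, of which 11 were in the table and 10 reached 1 FPKM. In GLOB against OV 1 was higher and 7 lower, and in MG against HEART 0 were higher and 2 lower. On a common sum these counts were 0 and 7, and 0 and 5. The one higher in GLOB was AP2, a repressor of AG in the outer flower, with 25.3 FPKM in OV, 54.4 at GLOB, 51.7 at HEART, 1.78 at MG and 0.0877 at DS. Among the lower ones were the repressor partners LUG, at 16.8 FPKM in GLOB against 52.3 at OV, and SEU, at 11.9 FPKM in GLOB against 34.9 at OV. CLF, the Polycomb methyltransferase that silences AG, stood at 2.31 FPKM in GLOB against 10.8 at OV. HUA1, which promotes AG transcript processing, was also lower, at 10.5 FPKM in GLOB against 22.0 at OV. The remaining lower ones were HUA2, at 3.25 FPKM in GLOB against 9.83 at OV, BPC3 and LFY. BPC3 stood at 1.12 FPKM in GLOB against 3.61 at OV, and LFY at 0.0220 against 2.24. Later, HUA1 stood at 97.7 FPKM in DS against 25.4 at MG. BEL1, an ovule integument gene, stayed between 1.04 and 7.51 FPKM.

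Genes known as targets in Arabidopsis were followed through 11 symbols, of which 7 reached 1 FPKM. In GLOB against OV 2 were higher and 1 lower, and in MG against HEART 2 were higher and 5 lower. On a common sum 2 were higher and 2 lower in GLOB against OV. BAN, a gene of tannin synthesis that STK represses, stood at 0.707 FPKM in OV, 185 at GLOB, 248 at HEART, 106 at MG and 0.0780 at DS. VDD, an ovule gene that STK activates, stood at 267 at OV, 128 at GLOB, 81.6 at HEART, 4.68 at MG and 13.6 FPKM at DS. EOD3, another listed STK target, stood at 0.788 at OV, 8.40 at GLOB, 2.88 at HEART, 22.4 at MG and 21.4 FPKM at DS. It was among those higher in GLOB against OV and in MG against HEART. IAA30, an auxin response gene that AGL15 activates, stood at 0.0356 at OV, 0.704 at GLOB, 1.35 at HEART, 18.8 at MG and 3.25 FPKM at DS. GA2OX6, a gibberellin-inactivating enzyme gene and another AGL15 target, did not pass 2.78 FPKM, and the AG targets SPL and KNU did not reach 1 FPKM. SUP, another listed AG target, stood at 2.89 at OV, 1.85 at GLOB, 1.03 at HEART and 0 FPKM at MG and DS. CRC and IND were listed at 0 throughout.

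For each locus with a sum of 10 FPKM or more, the Arabidopsis locus with the most similar course was found among 12388 others, as the smallest Euclidean distance between centred log2(FPKM + 1) sums over the 5 stages. The closest was AT1G73600 for STK (distance 1.07), AT1G01620 for SHP1 (1.03), AT4G14730 for SHP2 (0.533) and AT1G06760, a histone H1 gene, for AG (0.390). It was AT5G60142 for SEP1 (0.667) and SEP2 (1.297), AT1G43910 for SEP3 (0.774), AT5G15530 for AGL15 (1.13) and AT5G47730 for AGL18 (0.136). AT4G14730 stood at 156 FPKM in OV, 514 at GLOB, 472 at HEART, 9.54 at MG and 0.0753 at DS. AT5G15530, which encodes a biotin carrier subunit of plastid acetyl-CoA carboxylase, stood at 14.6 at OV, 31.4 at GLOB, 62.7 at HEART, 347 at MG and 0.656 FPKM at DS. With 5 stages such likeness is a description.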

How the data were processed

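The authors deposited 1 table of FPKM values with 1 value per gene and stage. Per the design text, reads of 100 bases were trimmed with Trimmomatic 0.36, aligned with HiSat2 to the DH12075 genome and quantified with Cuffquant and Cuffdiff; the submitters' processing notes also name TopHat2 and Cuffnorm. The way replicate libraries were combined, and reads divided among very similar copies, is not given in the sources used here, so values of single copies are uncertain: 21 of the 59 copies share a Darmor identifier with another. The table holds 2 value columns that match no sample and were not used.

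Symbols and roles come from Arabidopsis nomenclature. Subgenomes follow the chromosome number, given the letter that most of its Darmor identifiers carry (at least 79.6%), and 7 copies have a Darmor identifier of the other letter. Each copy at 10 FPKM or more is given at every stage. Members and lists were chosen with earlier results of these data known. BPC1 was not analysed here. An exact 0 can be a failed estimate. Calculations used Python 3.11.15 and pandas 2.3.3, and the counting was tested on simulated data. Alternatives were a pseudocount of 0.1, other filters and detection limits, and rescaling by the median of ratios or to a common sum.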

Additional observations from a re-analysis of the deposited data

How the results depend on the processing

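No paired analysis was possible because the values used here are 1 per stage, and for that reason no replicate could be left out. Of the counts of copies past the threshold, 1 moved by more than 1.5 times: in HEART against GLOB a pseudocount of 0.1 gave 9 copies in place of 5. On a common sum 5 copies were higher and 2 lower there, in place of 3 and 2. The totals of the other 4 comparisons stayed within 1.5 times under all 5 alternatives, but some counts by direction moved further. On a common sum the higher copies in GLOB against OV were 3 in place of 9. In MG against HEART they were 1 in place of 5, and in DS against MG 2 in place of 1. With a mean FPKM of at least 5, 7 copies were lower in GLOB against OV, in place of 11. Under other limits 35 to 41 copies were detected. On a common sum the median of all genes was -0.32 in GLOB minus OV, -0.98 in MG minus HEART and 0.27 in DS minus MG, and relative to it 10 copies were higher and 13 lower, 5 and 27, and 1 and 23 in these comparisons. Among single copies at 10 FPKM or more, 10 differences dropped below the threshold and 6 passed it on a common sum, and none past it changed sign. These copy settings and those for the lists were chosen after seeing the data. In MG against HEART the regulators past the threshold were 5 on a common sum and 4 with a pseudocount of 0.1, in place of 2. In HEART against GLOB the targets were 2 under either setting, in place of 1. No other list total, higher and lower together, moved by over 1.5 times. The depth of the libraries, and with it the precision of low values, is unknown.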

Other observations

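Several member identifiers lie next to each other. BnaN17g15500 and BnaN17g15510, both paired with SEP3, are followed by BnaN17g15520, paired with SEP4, BnaN07g09180 by BnaN07g09190, both paired with SEP3, and BnaN01g09870 by BnaN01g09880, both paired with AG. In OV 1 identifier of each run had a value above 0: BnaN17g15500 with 17.8 FPKM, BnaN07g09180 with 12.3 FPKM and BnaN01g09880 with 4.66 FPKM. BnaN01g09870 was listed at 0 in all 5 stages. BnaN07g09190 carries the same Darmor identifier as BnaN17g15500. BnaN17g15510 and BnaN17g15520 had their highest values in HEART, at 1.46 and 0.498 FPKM, where BnaN17g15500 stood at 1.61 FPKM. Whether these rows are parts of one gene was not tested.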
